A study of Mus musculus with 12 samples.

Results

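DNA replication genes were followed in bone marrow-derived macrophages (BMDMs) of wild-type and Nlrp3-/- mice. The set held 38 genes, picked by symbol from the 55335 genes of the expression table: subunits of the replicative helicase, factors that load it, the sliding clamp and its loader, polymerases and primase, enzymes of Okazaki fragments and of deoxynucleotide supply, chromatin factors that work behind the fork, and the transcription factors E2f1 and E2f2. All 38 passed the filter on low values and were tested. RNA sequencing covered 12 libraries, 3 in each of 4 groups: wild-type control, wild-type with LPS+ATP, control of Nlrp3-/- mice, and Nlrp3-/- with LPS+ATP. Control cells received neither agent. Per the labels, stimulated cells received lipopolysaccharide (LPS), a bacterial cell wall component, for 4 h, followed by ATP for 30 min, whereas the methods state longer incubations with both, so the times behind these libraries are uncertain. BMDMs were grown from marrow of C57BL/6 mice in macrophage colony-stimulating factor, and adherent cells were kept. Values are FPKM, in which fragment numbers are divided by gene length and library size. The number of reads was unknown, and the relative depth read from steps between low values ran from 1 to 1.218, highest in wild-type control replicate 3.

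Before a cell divides, a ring of MCM proteins is loaded onto origins by Cdc6 and Cdt1 and becomes the active helicase once Cdc45 and the GINS complex join it. Primase and polymerases then copy both strands, held to DNA by the clamp Pcna, while ribonucleotide reductase and related enzymes supply deoxynucleotides. E2F factors bind the promoters of many of these genes, and macrophages that divide in response to colony-stimulating factor are known to slow their division when they meet LPS.

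Nlrp3 (ENSMUSG00000032691), the targeted gene, read 9.24, 9.71 and 10.1 FPKM in wild-type control libraries and 32.1, 33.0 and 33.6 FPKM in wild-type LPS+ATP libraries. It was listed at 0 in all 6 Nlrp3-/- libraries, which matches their labels. The macrophage markers Lyz2 and Csf1r were high in all 4 groups: Lyz2 averaged 1.85e+04, 9471, 1.77e+04 and 9309 FPKM in the groups as listed above, and Csf1r 253, 178, 164 and 176 FPKM. All 8 macrophage markers on the list were tested, and the list summed to between 10699 and 21150 FPKM in a library, most of it Lyz2. Itgam, a marker of the same list, was 103 and 100 FPKM in replicate 2 of the control groups and 33.0 to 42.0 FPKM in their other libraries, a spread the other markers did not show.

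LPS+ATP went with low levels of most of the replication genes. In wild-type BMDMs the 38 genes summed to 366 ± 6.21 FPKM (SD, n = 3) in control and 116 ± 1.21 FPKM (SD, n = 3) with LPS+ATP, and in Nlrp3-/- BMDMs to 349.7 ± 0.673 FPKM (SD, n = 3) and 176 ± 2.50 FPKM (SD, n = 3). Without Pcna, the most abundant member, the sums were 257, 82.8, 275 and 139 FPKM in the same order. The order of the genotypes in control thus depended on Pcna. The median member kept 26.6% of its control FPKM in wild-type cells and 47.8% in Nlrp3-/- cells. In bulk samples, fewer cells that replicate their DNA and less RNA per such cell cannot be told apart. The heat map of all members shows LPS+ATP libraries below control libraries of the same genotype for nearly every gene. Pola2 and E2f1 were exceptions in both genotypes, and Tyms was one in Nlrp3-/- cells.

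**Figure D1:**
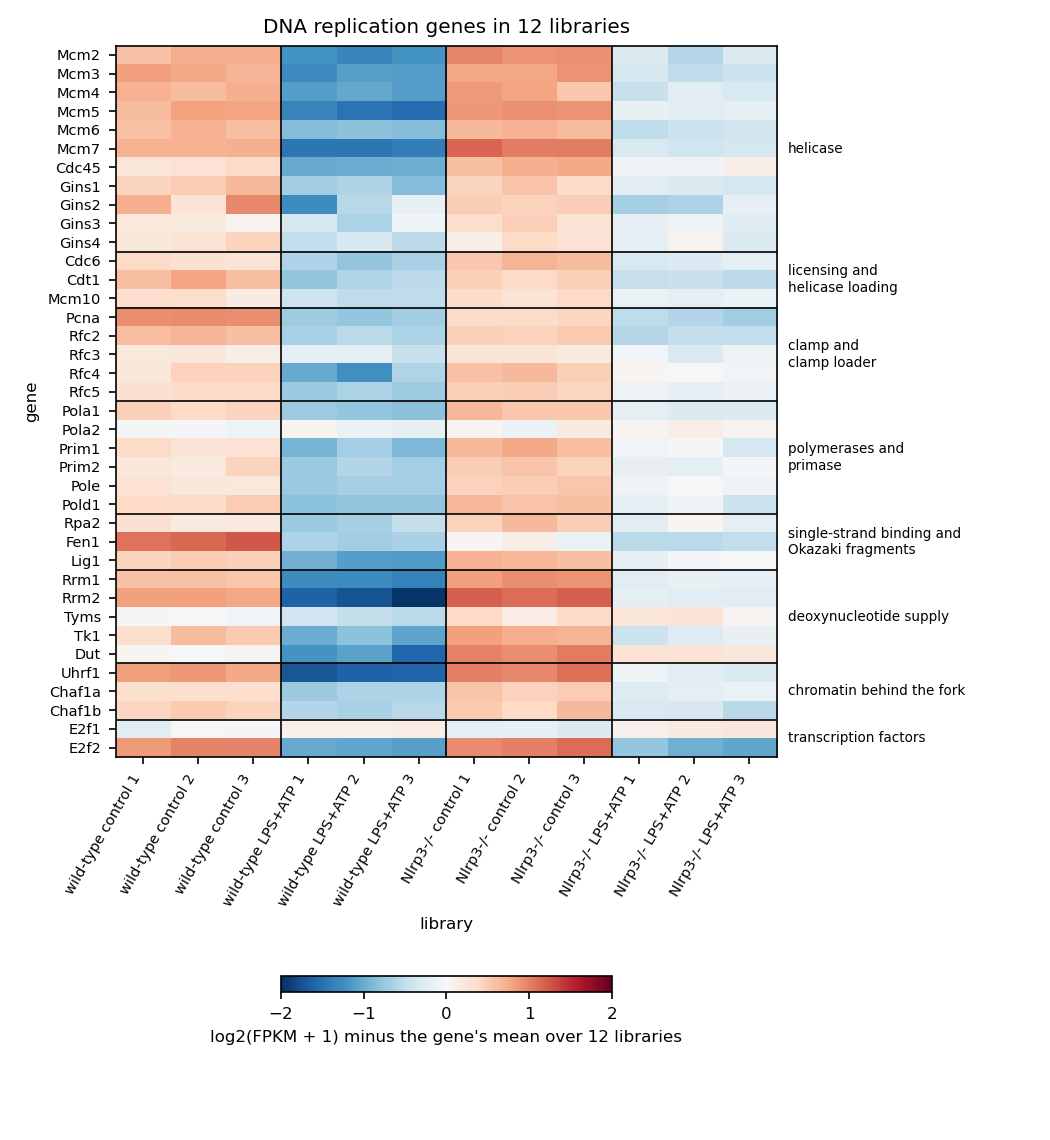
Log2(FPKM + 1) of each of 38 replication genes (vertical axis, by role) in 12 libraries (horizontal axis), as the difference from the gene's mean over all 12 on a colour scale. Blue cells fill the wild-type LPS+ATP columns for most genes and paler cells the Nlrp3-/- LPS+ATP columns, while Pola2 and E2f1 do not turn blue. Tyms and Dut lie above their means in the Nlrp3-/- LPS+ATP columns.

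Differences were tested with limma on log2(FPKM + 1), a scale that understates the change of low genes, with Benjamini-Hochberg adjustment over 12622 tested genes, and a gene was called when its adjusted p was under 0.05 and its change, up or down, was no smaller than 1 on that scale. In wild-type BMDMs 27 of 38 members were called lower with LPS+ATP, against 11.2% of all tested genes, and limma called 0 higher, against 8.25%. Without the fold limit 36 members were lower, against 53.1%, and 1 was higher, E2f1, against 23.3%. At an unadjusted p under 0.05 there were also 36 lower and 1 higher. Shares of all tested genes were not taken at an unadjusted p, so counts at that threshold, here and below, have no background beside them. In Nlrp3-/- BMDMs limma called 12 members lower, against 8.21% of tested genes, and 0 higher, against 6.64%. Without the fold limit 35 were lower, against 53.8%, and again 1 was higher, against 20.6%, with 35 and 1 at an unadjusted p under 0.05. The median log2 fold change of the members was -1.28 in wild-type and -0.82 in Nlrp3-/- cells, beside -0.25 and -0.24 over all tested genes. The labels do not say whether replicates were separate cultures, so p measures the spread between these libraries, which may be technical.

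The size of the fall depended on how libraries were scaled. Under median-ratio scaling the median over the tested genes shifted by 0.25 and 0.23 in the wild-type and Nlrp3-/- stimulation comparisons, by -0.12 and -0.15 in the genotype comparisons without and with LPS+ATP, and by -0.02 in the interaction. Under upper-quartile scaling the shifts were 0.13, 0.10, -0.06, -0.09 and -0.03. Among members in wild-type cells 22 were then called lower with median-ratio and 24 with upper-quartile scaling. Cdc6, Rfc5 and Chaf1b lost the call under both, and Rfc2 and Pold1 under the former. In Nlrp3-/- cells 4 remained with median-ratio scaling, namely Mcm2, Mcm7, Rrm2 and E2f2, and 6 with upper-quartile scaling, where Mcm3 and Uhrf1 were added. Over all tested genes in wild-type cells, 1041 were called higher and 1411 lower as deposited, 1400 and 878 with median-ratio, and 1220 and 1087 with upper-quartile scaling. The Nlrp3-/- split was 838 higher and 1036 lower as deposited, 1094 and 605 with median-ratio, and 932 and 802 with upper-quartile scaling.

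The fall was smaller in Nlrp3-/- BMDMs for a large share of the set. By limma's interaction test, which compares the stimulation effect between genotypes, 4 members (Mcm5, Fen1, Rrm2 and Uhrf1) had an effect called higher in Nlrp3-/- cells, against 0.721% of tested genes, and 0 were called lower, against 1.43%. The 4 became 14 with a pseudocount of 0.1 and 8 as TPM, and the median interaction of the members went from 0.39 to 0.74 and 0.66. Without the fold limit limma gave 25 members, against 14.7%, and 0 in the other direction, against 13%, and at an unadjusted p under 0.05 it gave 29 and 0. The ratio of control to LPS+ATP FPKM was larger in wild-type cells for 38 of 38 members as deposited and as TPM, for 37 with median-ratio scaling and for 36 with upper-quartile scaling. The plot of both effects shows 37 of 38 points above the diagonal, where 53.8% of all tested genes lie, with E2f2 close to it and Gins3 just below at -0.02, a value that turned positive with a pseudocount of 0.1 and as TPM.

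**Figure D2:**
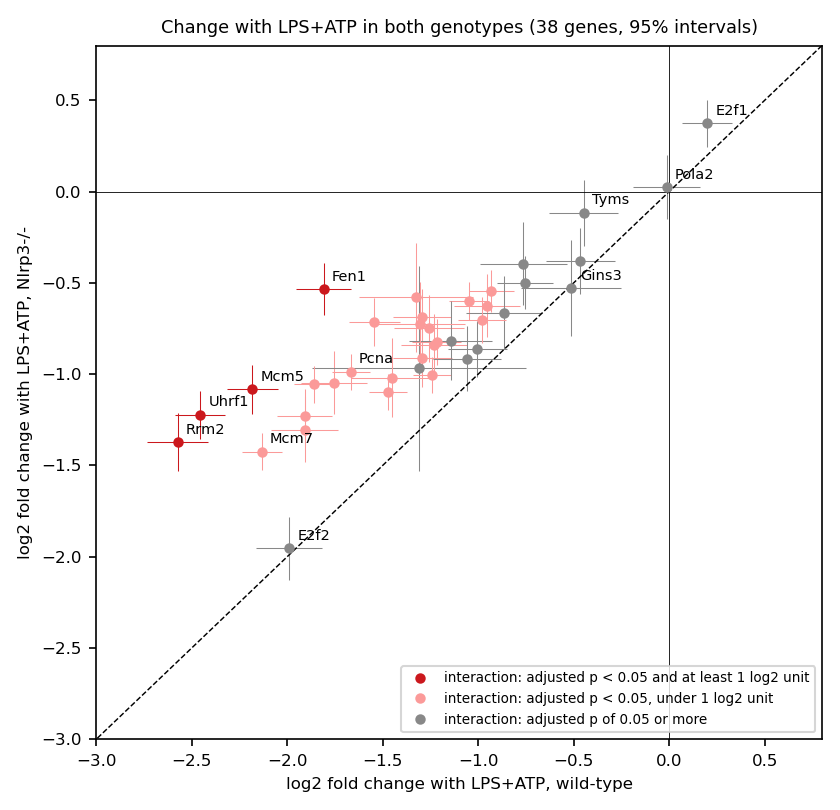
Log2 fold change of FPKM + 1 with LPS+ATP in wild-type (horizontal axis) and in Nlrp3-/- BMDMs (vertical axis) for 38 replication genes, with 95% intervals; the dashed line marks equal effects and colour marks the interaction test. Fen1 lies farthest from the line (interaction 1.28), E2f2 close to it (0.04), and under TPM, median-ratio and upper-quartile scaling Pola2 moves to the positive side in wild-type cells.

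Fewer members differed between genotypes before stimulation than after it. In control cells limma called 0 members higher in Nlrp3-/- BMDMs, against 6.02% of tested genes, and 1 lower, Fen1, against 0.689%. Without the fold limit 15 were higher, against 33.3%, and 4 lower (Cdt1, Pcna, Rfc2 and Fen1), against 14.5%. An unadjusted p under 0.05 was reached by 20 and 4, counts without a share of all tested genes beside them. With median-ratio scaling and no fold limit 7 members were higher and 5 lower, and the split of all tested genes turned over, from 4203 higher and 1832 lower to 2587 and 3230. With LPS+ATP limma called 7 members higher in Nlrp3-/- cells (Mcm5, Mcm7, Lig1, Rrm1, Rrm2, Dut and Uhrf1), against 4.48%, and 0 lower, against 0.57%. Without the fold limit 28 were higher, against 35.9%, and 0 lower, against 12.6%, and at an unadjusted p under 0.05 there were 29 and 0. Lig1 lost its call with upper-quartile scaling, and Mcm7 and Lig1 with median-ratio scaling. The median log2 difference of the members was 0.17 in control and 0.54 with LPS+ATP, beside 0.09 and 0.11 over all tested genes. The control value was 0.0368 with median-ratio and 0.10 with upper-quartile scaling, and with median-ratio scaling the medians of all tested genes turned to -0.03 and -0.04. Stimulation and genotype comparisons share groups of libraries, so their values are given side by side.

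**Figure D3:**
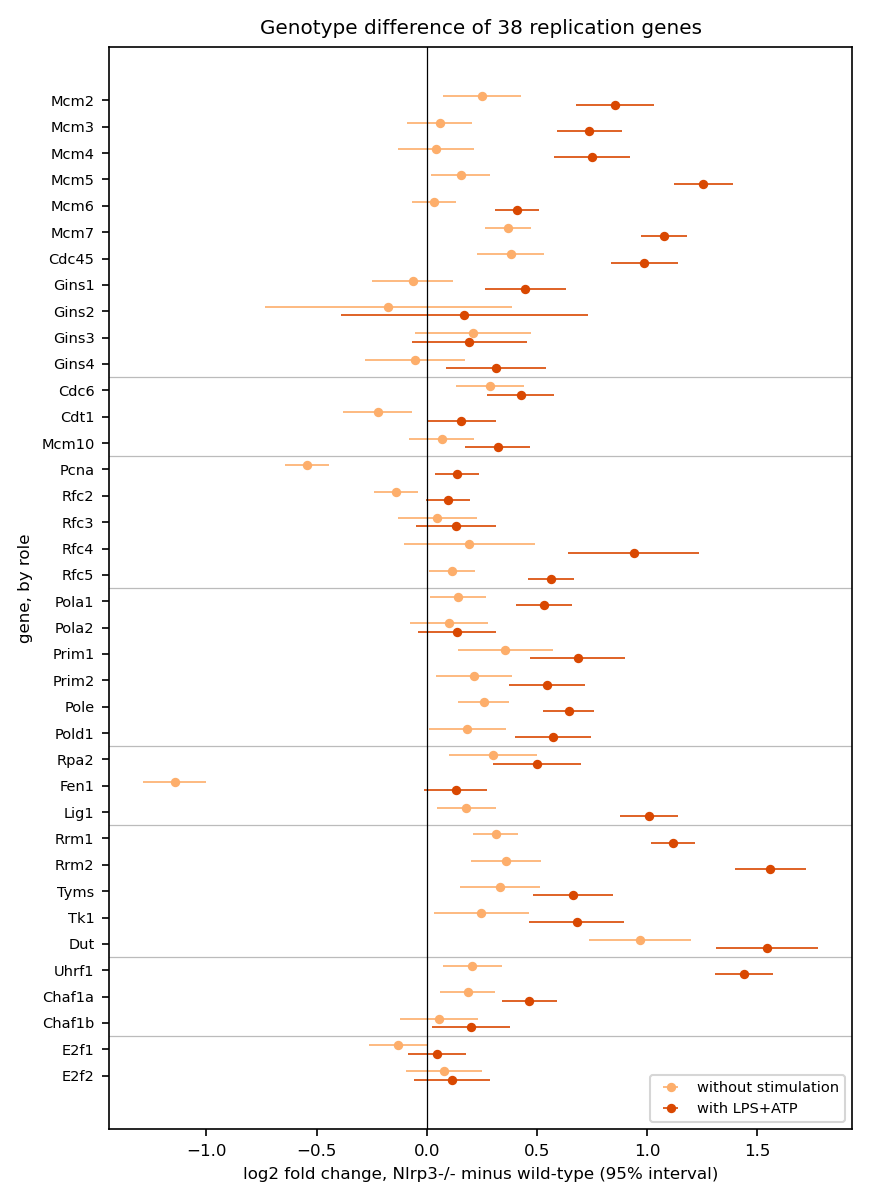
Log2 fold change of Nlrp3-/- over wild-type BMDMs (horizontal axis, on FPKM + 1, with 95% intervals) for 38 replication genes by role (vertical axis), without stimulation (light) and with LPS+ATP (dark). Dark points lie to the right of 0 as deposited, although Pcna, Rfc2, Rfc3, Pola2, Fen1 and E2f1 turn negative with median-ratio and Rfc2 and E2f1 with upper-quartile scaling, and the light point of Fen1 lies at -1.14.

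Markers of other cells also moved with genotype. Of all tested genes, limma called 6.02% higher in Nlrp3-/- control cells and 4.48% with LPS+ATP. Macrophage markers shifted too: at an adjusted p under 0.05 alone, 4 of 8 were lower and 1 higher in Nlrp3-/- cells in each state. Of all tested genes, 14.5% were lower and 33.3% higher in control at that threshold, and 12.6% and 35.9% with LPS+ATP. With the fold limit limma called 0 of the 8 in either state. Of 7 fibroblast markers, 6 were called higher by limma in Nlrp3-/- control cells and 5 with LPS+ATP. Their summed FPKM was 162, 168 and 166 in wild-type control, 191, 193 and 193 in wild-type LPS+ATP, 1198, 1205 and 1188 in Nlrp3-/- control, and 932, 927 and 942 in Nlrp3-/- LPS+ATP libraries. Col1a1, a collagen chain, was the most abundant, and all 7 markers were above 0 in all 12 libraries. Of 9 neutrophil and granulocyte precursor markers, 9 were called higher in Nlrp3-/- control cells and 6 with LPS+ATP. They summed to 338, 363 and 375 FPKM in wild-type control, 110, 127 and 115 in wild-type LPS+ATP, 1911, 1859 and 1868 in Nlrp3-/- control, and 498, 494 and 524 in Nlrp3-/- LPS+ATP libraries, with S100a9 the most abundant and no marker at 0. Mpo and Elane, granule enzymes of dividing granulocyte precursors, fell to 0.585 ± 0.0396 and 1.44 ± 0.345 FPKM (SD, n = 3) in Nlrp3-/- LPS+ATP cells, from 53.3 ± 4.43 and 65.5 ± 1.19 FPKM (SD, n = 3) in Nlrp3-/- control cells. The part of fibroblasts and granulocyte precursors in the values of the replication genes was not tested.

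Other lists were lower. Hematopoietic progenitor markers summed to at most 5.56 FPKM in a library, and of 3 tested limma called 1, Myb, higher in Nlrp3-/- control cells and 0 with LPS+ATP. Of 3 erythroid markers tested 2 and 1 were called higher in Nlrp3-/- cells without and with LPS+ATP, and of 2 mast cell and basophil markers 1 and 1. Over all tested genes these shares were 6.02% and 4.48%. Mast cell and basophil markers reached 10.2 FPKM in Nlrp3-/- control replicate 1, mostly Mcpt8, with Mcpt4 at 0 in all 12 libraries. Tfrc, the most abundant of the tested erythroid markers and one that dividing cells of many kinds express, averaged 37.6, 12.7, 58.7 and 15.1 FPKM in the 4 groups. T cell, B cell and dendritic cell markers summed to at most 0.0865, 1.91 and 0.787 FPKM, and none of them was tested. Donor sex went with genotype: Xist was 32.8 FPKM or more in each Nlrp3-/- library and 0.0416 FPKM or less in each wild-type library, and 4 Y-linked genes (Uty, Kdm5d, Eif2s3y, Ddx3y) had no FPKM above 0 in Nlrp3-/- libraries. Nnt, which is known to differ between C57BL/6 substrains and was chosen after its values were seen, ranged from 4.09 to 10.3 FPKM in wild-type and from 0.670 to 1.47 FPKM in Nlrp3-/- libraries. Genotype and sex cannot be told apart in these comparisons, nor could a difference of substrain, which Nnt alone does not establish.

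Of 11 helicase genes, limma called 9 lower in wild-type and 6 in Nlrp3-/- BMDMs with LPS+ATP, against 11.2% and 8.21% of all tested genes, and all 11 passed an adjusted p under 0.05 in each, against 53.1% and 53.8%. The 6 called in Nlrp3-/- cells were Mcm2 to Mcm7, which form the ring, of which Mcm4, Mcm5 and Mcm6 lost the call with both library scalings and Mcm3 with median-ratio scaling. Together these summed to 86.2 ± 1.66 FPKM (SD, n = 3) in wild-type control, 20.3 ± 0.321 in wild-type LPS+ATP, 94.1 ± 1.60 in Nlrp3-/- control and 38.5 ± 0.768 in Nlrp3-/- LPS+ATP cells. Although the ring takes its subunits in equal number, their transcripts differed in level, from 6.43 FPKM for Mcm2 to 24.4 FPKM for Mcm6 in wild-type control means. The share of the control FPKM that was left with LPS+ATP ran from 14.1% for Mcm7 to 33.4% for Mcm6 in wild-type cells, and from 31.9% for Mcm7 to 44.7% for Mcm4 in Nlrp3-/- cells.

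Mcm5 (ENSMUSG00000005410) read 13.5, 15.4 and 15.1 FPKM in wild-type control, 2.72, 2.36 and 2.24 with LPS+ATP, 16.04, 16.6 and 16.4 in Nlrp3-/- control and 7.44, 7.002 and 7.15 FPKM in Nlrp3-/- LPS+ATP libraries. The LPS+ATP libraries lay below every control library, and the wild-type ones below the Nlrp3-/- ones, with no overlap. By limma, Mcm5 fell by 2.18 on the log2 scale in wild-type (adjusted p = 3.56e-11) and by 1.08 in Nlrp3-/- cells (adjusted p = 2.35e-08), an interaction of 1.10 ± 0.0856 (SE, adjusted p = 5.38e-06). Mcm7 (ENSMUSG00000029730) read 8.81, 8.82 and 8.90 FPKM in wild-type control, 1.21, 1.21 and 1.30 with LPS+ATP, 12.5, 11.3 and 11.4 in Nlrp3-/- control and 3.87, 3.58 and 3.75 FPKM in Nlrp3-/- LPS+ATP libraries. Again the 4 groups did not overlap, and the change was -2.13 in wild-type (limma, adjusted p = 5.08e-12) and -1.42 in Nlrp3-/- cells (adjusted p = 2.17e-10). Mcm2 (ENSMUSG00000002870) had 5.96, 6.68 and 6.66 FPKM in wild-type control, 1.02, 0.871 and 1.04 with LPS+ATP, 8.09, 7.66 and 7.76 in Nlrp3-/- control and 2.83, 2.13 and 2.82 FPKM in Nlrp3-/- LPS+ATP libraries. Its groups were likewise separate, with log2 fold changes of -1.91 and -1.30 (limma, adjusted p = 1.34e-09 and 5.18e-08).

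Mcm3, Mcm4 and Mcm6 followed the same order, with log2 fold changes of -1.91, -1.75 and -1.47 in wild-type and -1.23, -1.05 and -1.10 in Nlrp3-/- cells, all called by limma as deposited. Between genotypes in control cells these were 0.06, 0.04 and 0.03, which did not pass the test and turned negative with median-ratio and upper-quartile scaling.

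Cdc45 (ENSMUSG00000000028), which joins the ring to the GINS complex, read 3.08, 3.20 and 3.51 FPKM in wild-type control and 0.714, 0.741 and 0.752 FPKM in wild-type LPS+ATP libraries. In Nlrp3-/- cells it read 4.22, 4.63 and 4.81 FPKM in control and 2.28, 2.29 and 2.78 FPKM with LPS+ATP. Nlrp3-/- libraries were above wild-type ones in both states without overlap, by 0.38 in control (limma, adjusted p = 7.81e-04) and 0.99 with LPS+ATP (adjusted p = 4.41e-07) on the log2 scale, under the fold limit. Of the GINS genes, Gins1 and Gins2 were called lower in wild-type cells, at -1.26 and -1.31. Gins2 was uneven within groups, at 0.795, 1.92 and 2.81 FPKM in the wild-type LPS+ATP libraries. Gins3 and Gins4 fell by 0.51 and 0.76 in wild-type and by 0.53 and 0.40 in Nlrp3-/- cells, within the fold limit. Gins2 shares 2758 exon bases with Gse1 on the other strand, and Mcm7 and Cdc45 overlap genes on the other strand by 321 bases or fewer. The strand used in counting was not given in the sources used here, so reads of such pairs cannot be told apart. Mcm7 also has a near copy, Gm5487, at 97.7% identity, which is not listed in the table, and its values are uncertain in that respect.

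Promoters of the members, of every role, were searched for short motifs as a description only. RefSeq promoters (GRCm38.p6, 250 bases before to 50 after the start) matched 31 of 38 members by symbol. No promoter was matched for Mcm4, Gins1, Gins2, Gins4, Rfc2, Prim2 and Pole. An E2F-type motif, TTTCCCGC or TTTGGCGC on either strand, was found in 11 of 31 members (35.5%) and in 1.80% of 27025 genes with a promoter in the table. Each motif alone was found in 6 of the 31. Genes with several start sites were counted when any of their promoters held the motif. CCAAT was found in 18 of 31 (58.1%) against 41.1% of genes, and TTTGAA, the CHR element, in 5 of 31 (16.1%) against 20.2%, on either strand. E2F-type matches overlapped no CCAAT match in members. The 11 were Mcm3, Mcm5, Mcm6, Mcm7, Gins3, Cdc6, Cdt1, Rfc3, Pola1, Pold1 and E2f2. Mcm3 and Mcm6 held 2 matches each, the highest number among the members, and their promoters are printed for that reason in lower case with the E2F-type matches in capitals, 5′ to 3′. The Mcm3 promoter lies at chr1:20820263-20820562, minus strand, with matches beginning 19 and 38 bases after the start, and the Mcm6 promoter at chr1:128359656-128359955, minus strand, with matches at -110 and -47. A match is a description of these letters, not a binding site or a cause.
Mcm3: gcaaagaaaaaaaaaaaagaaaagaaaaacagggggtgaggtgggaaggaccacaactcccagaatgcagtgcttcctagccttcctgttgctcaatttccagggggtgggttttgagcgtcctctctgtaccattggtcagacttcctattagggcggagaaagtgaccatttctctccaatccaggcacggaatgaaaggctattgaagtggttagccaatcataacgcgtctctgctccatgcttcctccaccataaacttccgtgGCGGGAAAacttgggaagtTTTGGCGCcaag
Mcm6: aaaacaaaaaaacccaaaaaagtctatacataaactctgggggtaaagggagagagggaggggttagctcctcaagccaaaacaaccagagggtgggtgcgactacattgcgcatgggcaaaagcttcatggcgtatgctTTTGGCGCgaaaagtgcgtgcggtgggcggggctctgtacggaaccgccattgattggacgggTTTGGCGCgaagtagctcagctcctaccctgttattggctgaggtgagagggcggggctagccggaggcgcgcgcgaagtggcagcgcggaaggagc

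Cdc6 and Cdt1, which load the ring at origins, were called lower in wild-type cells, at -1.004 and -1.29, and Mcm10, which acts when the helicase starts, fell by 0.75 without reaching the fold limit. All 3 were lower at an adjusted p under 0.05 in Nlrp3-/- cells too, against 53.8% of all tested genes. With the fold limit limma called 0 of them there, against 8.21%, although all 3 had an unadjusted p under 0.05. Cdt1 (ENSMUSG00000006585) read 8.89, 10.3 and 8.94 FPKM in wild-type control, 2.85, 3.31 and 3.55 with LPS+ATP, 8.06, 7.51 and 8.08 in Nlrp3-/- control and 3.76, 3.80 and 3.57 FPKM in Nlrp3-/- LPS+ATP libraries. Control libraries were higher in wild-type than in Nlrp3-/- cells, a difference of -0.22 (limma, adjusted p = 0.0235), while the LPS+ATP libraries lay in the opposite order, at 0.16 (adjusted p = 0.0927). Cdc6 was low in level, at 1.45 ± 0.130 FPKM (SD, n = 3) in wild-type control and 0.222 ± 0.0779 FPKM (SD, n = 3) with LPS+ATP, so its FPKM fell to 15.3% while its log2 change was close to the limit.

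Pcna (ENSMUSG00000027342), the clamp that keeps polymerases on DNA, was the most abundant member, with a mean of 63.6 FPKM over the 12 libraries. It read 108, 110 and 109 FPKM in wild-type control, 34.0, 32.5 and 34.5 with LPS+ATP, 73.7, 73.5 and 76.5 in Nlrp3-/- control and 39.6, 37.4 and 34.5 FPKM in Nlrp3-/- LPS+ATP libraries. Wild-type and Nlrp3-/- libraries were apart in control and overlapped with LPS+ATP. By limma, Pcna was lower by -0.54 in Nlrp3-/- control cells (adjusted p = 1.61e-06), fell by 1.67 with LPS+ATP in wild-type (adjusted p = 2.99e-11) and by 0.99 in Nlrp3-/- cells (adjusted p = 4.06e-09). With LPS+ATP the genotype difference was 0.14 (limma, adjusted p = 0.0282) and turned negative with median-ratio scaling. The pseudogene Pcna-ps2, a copy of 99.2% identity over 51.5% of the transcript, was listed at 21.1, 6.49, 13.2 and 6.81 FPKM in the 4 group means in the same order, so how reads were split between them is uncertain.

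Of the clamp loader genes, Rfc2, Rfc4 and Rfc5 were called lower in wild-type cells. Rfc2 was also called lower in Nlrp3-/- cells, but lost that call with both library scalings. The changes of Rfc2, Rfc4 and Rfc5 in wild-type cells were -1.24, -1.33 and -1.05. Rfc3 fell by 0.47, keeping 65.3% of its control FPKM. Rfc4 read 1.03, 0.738 and 1.70 FPKM in the wild-type LPS+ATP libraries and 3.19, 3.07 and 2.94 FPKM in the Nlrp3-/- ones, a genotype difference of 0.94 (limma, adjusted p = 1.45e-04). Rfc2 shares 952 exon bases with Lat2 on the other strand, which averaged 72.1 FPKM in wild-type control and 30.6 FPKM in wild-type LPS+ATP cells, so the fall of Rfc2 is uncertain. Rfc4 and Rfc5 overlap Eif4a2 and Wsb2 in the same way, by 194 and 499 bases, and Rfc5 has a near copy, Gm12870, listed at 0.239 FPKM or less.

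Most polymerase and primase genes were low in level, whereas Pold1 averaged 5.55 FPKM in wild-type control and 6.44 FPKM in Nlrp3-/- control. Limma called 3 of 6 lower in wild-type cells, Pola1, Prim1 and Pold1, at -1.22, -1.14 and -1.23, and 5 of 6 were lower at an adjusted p under 0.05, against 11.2% and 53.1% of all tested genes. In Nlrp3-/- cells 0 of 6 were called lower by limma with the fold limit and 5 were lower without it, against 8.21% and 53.8%. Pole (ENSMUSG00000007080), the catalytic subunit of the leading strand polymerase, was the lowest member, with a mean of 0.974 FPKM. It read 1.30, 1.20 and 1.18 FPKM in wild-type control, 0.134, 0.192 and 0.182 with LPS+ATP, 1.60, 1.65 and 1.76 in Nlrp3-/- control and 0.807, 0.879 and 0.801 FPKM in Nlrp3-/- LPS+ATP libraries. No 2 groups overlapped, and 13.8% of the control FPKM was left in wild-type and 49.6% in Nlrp3-/- cells, although the log2 changes were only -0.93 and -0.55 (limma, adjusted p = 1.92e-08 and 2.62e-06). Pola2, a partner of Pola1 in the polymerase that extends primers, departed from the others and was singled out after its values were seen. It read 2.59, 2.56 and 2.45 FPKM in wild-type control and 2.83, 2.39 and 2.30 FPKM with LPS+ATP, which overlapped, with a change of -0.01 (95% interval -0.19 to 0.16; limma, adjusted p = 0.883) that turned positive under TPM, median-ratio and upper-quartile scaling. Pola1 kept 16.8% of its control FPKM in the same cells.

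Among genes of Okazaki fragments, Fen1 had the largest interaction of the set as deposited. Fen1 (ENSMUSG00000024742), the nuclease that trims flaps, read 14.2, 15.02 and 15.97 FPKM in wild-type control, 3.71, 3.44 and 3.58 with LPS+ATP, 6.43, 6.86 and 5.58 in Nlrp3-/- control and 3.98, 3.96 and 4.11 FPKM in Nlrp3-/- LPS+ATP libraries. The wild-type control libraries stood above all others, and with LPS+ATP the genotypes were apart by 0.13 on the log2 scale, which did not pass the test (limma, adjusted p = 0.12) and turned negative with median-ratio scaling. Limma gave -1.14 for Nlrp3-/- against wild-type control (adjusted p = 6.90e-08), -1.81 for LPS+ATP in wild-type (adjusted p = 3.61e-10) and -0.53 in Nlrp3-/- cells (adjusted p = 1.89e-05), and an interaction of 1.28 ± 0.0923 (SE, adjusted p = 3.17e-06). Fen1 thus differed between genotypes chiefly in control cells, whereas Mcm5, Rrm2 and Uhrf1 differed chiefly with LPS+ATP. Fen1 overlaps Gm10143 and Tmem258 on the other strand, by 1909 and 130 exon bases. Gm10143 was listed at 0.620 FPKM or less, and Tmem258 averaged 12.1 and 11.1 FPKM in wild-type and Nlrp3-/- control cells. Lig1, the ligase that seals fragments, fell by 1.54 in wild-type cells, from 7.71 ± 0.210 to 1.99 ± 0.196 FPKM (SD, n = 3), and was called. Rpa2, a subunit of the protein that coats single strands, fell by 0.86 in wild-type and by 0.66 in Nlrp3-/- cells.

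Rrm2 (ENSMUSG00000020649), the subunit of ribonucleotide reductase whose level rises in S phase, read 12.2, 12.4 and 11.9 FPKM in wild-type control and 1.46, 1.27 and 0.937 FPKM in wild-type LPS+ATP libraries. In Nlrp3-/- cells it read 16.2, 15.3 and 16.2 FPKM in control and 5.55, 5.53 and 5.49 FPKM with LPS+ATP. All 4 groups were separate, and the lowest Nlrp3-/- LPS+ATP library was above the highest wild-type one. Rrm2 fell by 2.57 in wild-type (limma, adjusted p = 3.89e-11) and by 1.37 in Nlrp3-/- cells (adjusted p = 1.39e-08), with an interaction of 1.20 ± 0.102 (SE, adjusted p = 9.75e-06), and with LPS+ATP it was higher in Nlrp3-/- cells by 1.56 (adjusted p = 1.79e-08). Rrm1, the partner subunit, fell from 7.94 ± 0.0970 to 1.46 ± 0.0880 FPKM (SD, n = 3) in wild-type cells.

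Dut (ENSMUSG00000027203), which removes dUTP, was the member most raised in Nlrp3-/- over wild-type control cells. It read 3.76, 3.62 and 3.69 FPKM in wild-type control, 1.02, 1.20 and 0.538 with LPS+ATP, 8.21, 7.80 and 8.51 in Nlrp3-/- control and 4.63, 4.60 and 4.41 FPKM in Nlrp3-/- LPS+ATP libraries. Even the stimulated Nlrp3-/- libraries were above the wild-type control ones. Between genotypes limma gave 0.97 in control (adjusted p = 1.49e-05), just within the fold limit, and 1.55 with LPS+ATP (adjusted p = 3.56e-07). The limit was passed in control cells with a pseudocount of 0.1 (1.13, adjusted p = 7.62e-04) and as TPM (1.09, adjusted p = 2.64e-04). Tk1, a thymidine kinase, was called lower in both genotypes, at -1.45 and -1.02, but lost the Nlrp3-/- call with both library scalings. Tyms, which makes dTMP, fell by 0.45 in wild-type cells and read 2.27, 1.76 and 2.23 FPKM in Nlrp3-/- control and 1.95, 2.00 and 1.58 FPKM in Nlrp3-/- LPS+ATP libraries, which overlapped, a change of -0.12 that did not pass the test (limma, adjusted p = 0.218) and turned positive with median-ratio scaling.

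Uhrf1 (ENSMUSG00000001228), which recruits the maintenance DNA methyltransferase to newly copied DNA, had the largest change after Rrm2 on the log2(FPKM + 1) scale in wild-type cells. It read 11.2, 11.5 and 10.6 FPKM in wild-type control, 1.10, 1.25 and 1.26 with LPS+ATP, 12.8, 12.4 and 13.8 in Nlrp3-/- control and 5.4001, 4.92 and 4.64 FPKM in Nlrp3-/- LPS+ATP libraries. The groups did not overlap, and control levels differed by 0.21 between genotypes (limma, adjusted p = 0.0147). A near copy, Gm5648, was listed at 0.282 FPKM or less. The fall of Uhrf1 was 9.23-fold in wild-type and 2.60-fold in Nlrp3-/- cells by mean FPKM, and -2.46 and -1.22 by limma on the log2 scale (adjusted p = 1.23e-11 and 7.58e-09), with an interaction of 1.23 ± 0.0850 (SE, adjusted p = 2.20e-06). Chaf1a and Chaf1b, subunits of the assembly factor that deposits histones on new DNA, changed by -0.98 and -1.06 in wild-type and by -0.70 and -0.92 in Nlrp3-/- cells. Chaf1a shares 4648 exon bases with Ubxn6 on the other strand and is uncertain.

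The E2F genes behaved differently from each other. E2f2 (ENSMUSG00000018983) read 4.03, 4.53 and 4.57 FPKM in wild-type control, 0.387, 0.355 and 0.316 with LPS+ATP, 4.36, 4.61 and 5.08 in Nlrp3-/- control and 0.627, 0.424 and 0.352 FPKM in Nlrp3-/- LPS+ATP libraries. Stimulated libraries were far below control libraries in both genotypes, and genotypes overlapped in both states. By mean FPKM this was the largest fall of the set, 12.4-fold in wild-type and 10.01-fold in Nlrp3-/- cells. Limma gave -1.99 in wild-type (adjusted p = 7.85e-10) and -1.95 in Nlrp3-/- cells (adjusted p = 1.28e-09), and the interaction was 0.04 (95% interval -0.21 to 0.28; adjusted p = 0.854). E2f1, singled out after its values were seen, read 11.4, 13.3 and 13.1 FPKM in wild-type control and 14.4, 14.4 and 14.8 FPKM with LPS+ATP. It rose by 0.20 in wild-type (limma, adjusted p = 0.0105) and by 0.37 in Nlrp3-/- cells (adjusted p = 1.59e-04), within the fold limit. The plot of per-library values sets both beside 6 other members.

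**Figure D4:**
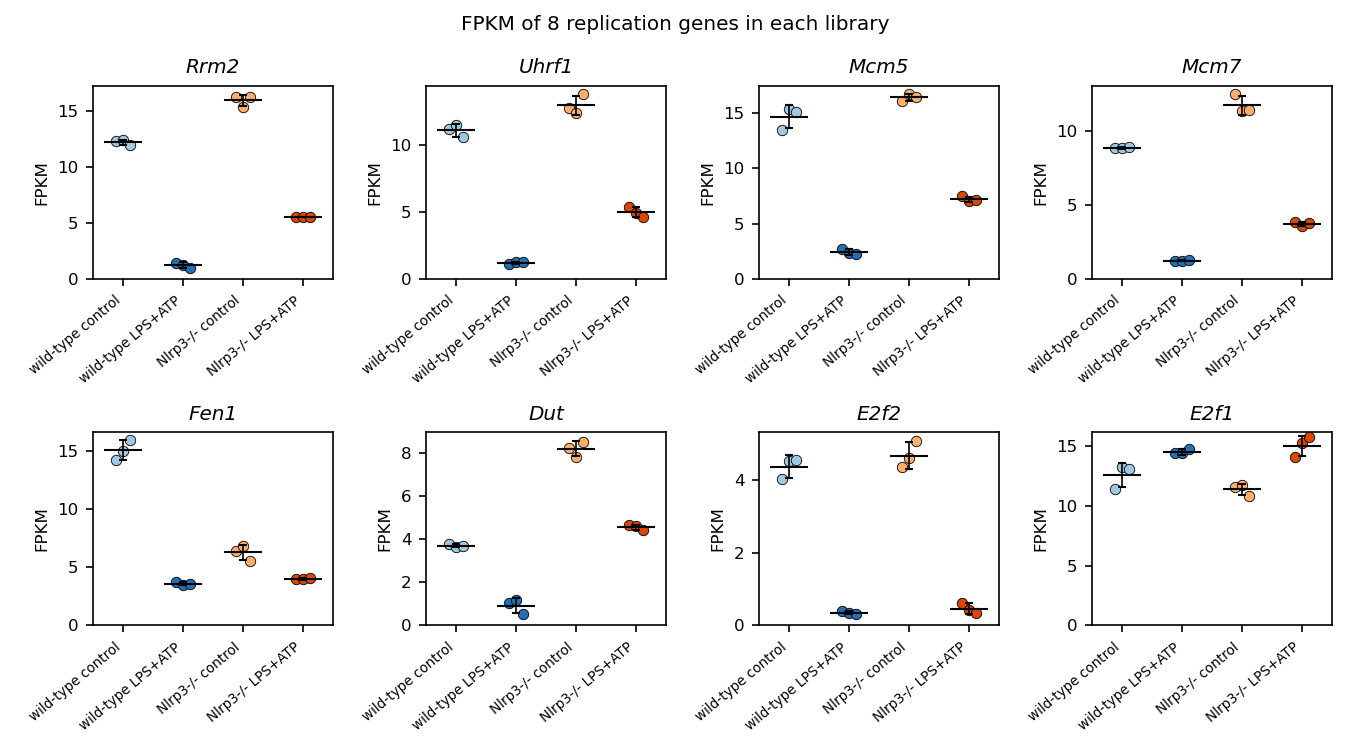
FPKM (vertical axes, from 0) of 8 replication genes in the 4 groups (horizontal axes); points are libraries, horizontal lines means and bars SD (n = 3). Rrm2, Uhrf1, Mcm5 and Mcm7 fall less far in Nlrp3-/- than in wild-type cells, E2f2 falls to a similar level in both, Fen1 starts lower in Nlrp3-/- cells, and E2f1 does not fall.

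Other replication genes moved in the same direction by less. Of 41 listed, 39 were tested, and limma called 11 lower in wild-type and 5 in Nlrp3-/- cells with LPS+ATP and 0 higher in either, against 11.2% and 8.21% of all tested genes lower. At an adjusted p under 0.05 alone, 3 and 1 were higher, against 23.3% and 20.6%, and 34 and 34 lower, against 53.1% and 53.8%. Their median log2 fold change was -0.66 in wild-type and -0.45 in Nlrp3-/- cells. In all, 12 were called in any of the 4 simple comparisons. Asf1b, a histone chaperone, went from 7.18 ± 0.493 to 1.236 ± 0.0453 FPKM (SD, n = 3) in wild-type cells, and Gmnn, the inhibitor of Cdt1, from 12.6 ± 0.646 to 3.12 ± 0.478 FPKM (SD, n = 3). Clspn, a mediator of the replication checkpoint, and Wdhd1, which links helicase and primase, changed by -1.36 and -1.23 in wild-type cells. Wdhd1 changed by -1.19 in Nlrp3-/- cells.

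Deoxynucleotide genes outside the set included falls and rises. Of 13 tested, 2 were called higher and 2 lower in wild-type cells, against 8.25% and 11.2% of all tested genes. In Nlrp3-/- cells 1 was called higher and 0 lower, against 6.64% and 8.21%. In all, 5 were called in any simple comparison. At an adjusted p under 0.05 alone, 2 were higher and 11 lower in wild-type cells (median -0.68). At the same threshold 2 were higher and 9 lower in Nlrp3-/- cells (median -0.56). Of all tested genes, 53.1% and 53.8% were lower and 23.3% and 20.6% higher. Samhd1, which breaks down deoxynucleotides, rose from 34.6 ± 0.559 to 83.2 ± 2.05 FPKM (SD, n = 3) in wild-type and from 30.1 ± 0.153 to 72.6 ± 0.0819 FPKM (SD, n = 3) in Nlrp3-/- cells. Dck, a salvage kinase, rose from 13.6 ± 1.05 to 36.8 ± 1.43 FPKM (SD, n = 3) in wild-type cells. Dctpp1 and Dtymk were called lower there, at -1.67 and -1.18 on the log2 scale. Rrm1, Rrm2 and Dut thus fell while Samhd1 and Dck rose in the same wild-type libraries.

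Among G1/S regulators, 36 of 39 were tested, and limma called 2 higher and 9 lower in wild-type, and 1 higher and 8 lower in Nlrp3-/- cells, against 8.25%, 11.2%, 6.64% and 8.21% of all tested genes, with 15 called in any simple comparison. At an adjusted p under 0.05 alone 17 and 19 of the 36 were lower, against 53.1% and 53.8%. A further 8 and 6 were higher, against 23.3% and 20.6%. Ccna2, the S phase cyclin, fell by 2.82 in wild-type and by 1.35 in Nlrp3-/- cells, an interaction of 1.47 (limma, adjusted p = 7.24e-07). Ccnd1, the cyclin that growth factors induce, fell from 15.5 ± 0.891 to 1.78 ± 0.142 FPKM (SD, n = 3) in wild-type cells, and Cdkn2c, a kinase inhibitor, from 7.88 ± 0.0610 to 0.604 ± 0.115 FPKM (SD, n = 3). Ccnd2 was higher in Nlrp3-/- cells in both states, by 2.06 in control and by 1.43 with LPS+ATP. Checkpoint genes were mixed, with 4 higher and 3 lower of 17 tested in wild-type cells, against 8.25% and 11.2% of all tested genes. In Nlrp3-/- cells 2 were called higher and 0 lower, against 6.64% and 8.21%. In all, 7 were called in any simple comparison. At an adjusted p under 0.05 alone 4 were higher and 10 lower in wild-type cells, against 23.3% and 53.1%. At the same threshold 5 were higher and 9 lower in Nlrp3-/- cells, against 20.6% and 53.8%. Mdm2, Gadd45b and Sesn2 rose by 2.00, 1.61 and 1.34 in wild-type cells, and Chek2, a checkpoint kinase, fell by 1.51.

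Most mitosis markers moved with the replication genes. Of 15, limma called 14 lower in wild-type and 10 in Nlrp3-/- cells, against 11.2% and 8.21% of all tested genes. With LPS+ATP 5 were called higher in Nlrp3-/- cells, against 4.48%, and 6 were called higher in the interaction, against 0.721%. Ccnb2, Cdc20, Cenpa and Plk1 fell by 2.97, 2.66, 2.55 and 2.55 in wild-type cells and by 1.20, 1.41, 1.503 and 1.22 in Nlrp3-/- cells. Mki67, the marker that was not called in wild-type cells and was named after its values were seen, stood at 15.8 ± 0.235 FPKM in wild-type control and 16.1 ± 0.557 FPKM with LPS+ATP (SD, n = 3). In Nlrp3-/- cells it fell, from 15.98 ± 0.547 to 11.4 ± 0.200 FPKM (SD, n = 3), by 0.46 on the log2 scale (limma, adjusted p = 6.67e-07), with an interaction of -0.48 (adjusted p = 6.78e-05), opposite to the other 14 markers. LPS response genes showed that both genotypes responded: all 8 tested were called higher with LPS+ATP in each, against 8.25% and 6.64% of tested genes. Il1b reached 1386 ± 19.0 FPKM (SD, n = 3) in wild-type cells, 995 ± 1.26 FPKM (SD, n = 3) in those of Nlrp3-/- mice. Nos2, Ccl5 and Acod1 rose by 9.72, 8.57 and 8.31 in wild-type and by 8.07, 8.93 and 6.24 in Nlrp3-/- cells. The plot of summed lists sets the replication genes beside mitosis markers and the fibroblast and granulocyte lists.

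**Figure D5:**
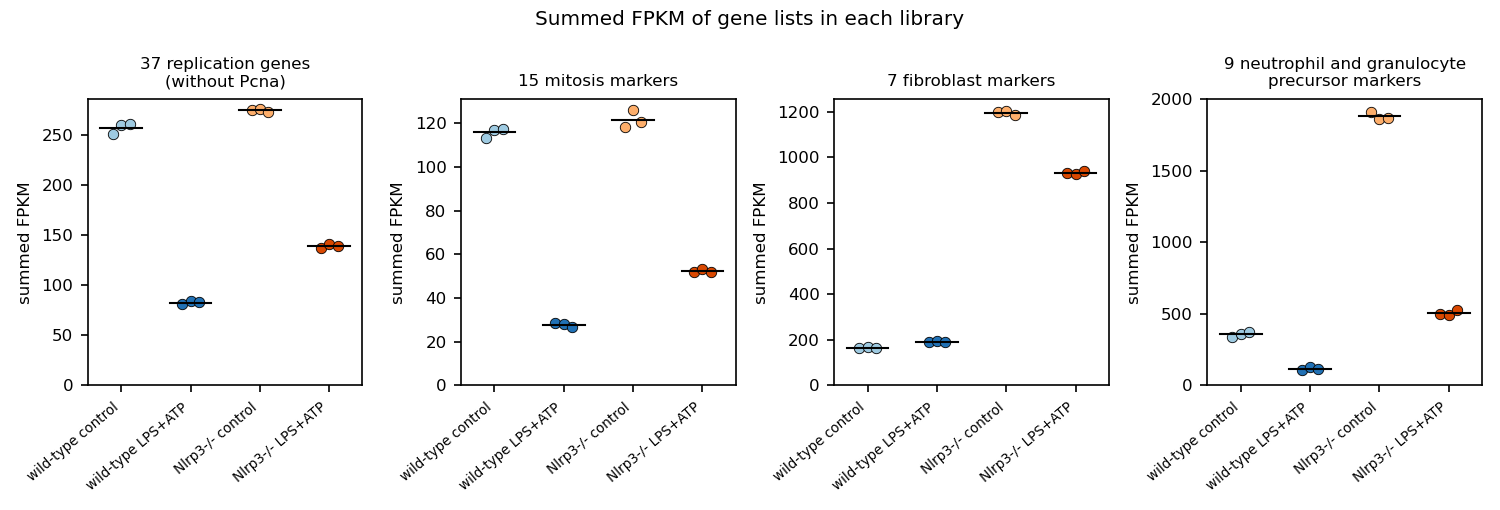
Summed FPKM (vertical axes, from 0) of 37 replication genes without Pcna, 15 mitosis markers, 7 fibroblast markers and 9 neutrophil and granulocyte precursor markers in the 4 groups (horizontal axes); points are libraries and lines means. The replication sum is 257, 82.8, 275 and 139 FPKM from left to right, whereas fibroblast markers stay high in both Nlrp3-/- groups.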

How the data were processed

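FPKM of 12 libraries (4 groups of 3) were used as the authors deposited them. The submitters' processing notes name the genome build GRCm39 and DESeq2 1.24.0 without a role; aligner, counter, annotation and strand are not given in the sources used here. All columns of per-library values were used (0 left out). Depth in reads is unknown from FPKM; relative depth was read from steps between values under 0.5 FPKM.

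A gene was tested if 3 or more libraries reached 1 FPKM (12622 genes). The test was limma 3.58.1 in R 4.3.3 on values of log2(FPKM + 1), with 1 mean per group, a trend in the variance and Benjamini-Hochberg adjustment, after the script was tested on simulated data. Values per library were given for the 4 members with the largest change in each simple comparison, those called in the interaction, the highest and the lowest, and 1 member of each role not yet covered; up to 4 genes were named per list. Gins2, Rfc4, Tyms, Pola2 and E2f1, with values per library also given, lay outside this rule. Members and lists were chosen with earlier results of these data known. Nnt was chosen after its values were seen. Lists covered other replication, deoxynucleotide, G1/S, checkpoint, mitosis, LPS response, cell type and donor sex genes. Alternatives were another pseudocount, other filters, no fold limit, TPM, median-ratio and upper-quartile scaling, no trend, a fit on only the groups compared, a block for replicate number, and leaving out each library. Median-ratio scaling with no fold limit was chosen after seeing the data. Near copies came from BLAST 2.17.0 at 95% identity over at least 20% of a transcript, overlaps from GENCODE M21, and plots from matplotlib 3.10.9 in Python 3.11.15.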

Additional observations from a re-analysis of the deposited data

Results flagged for a closer look

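The stimulation effect differed between genotypes by limma's interaction test (Nlrp3-/- minus wild-type, log2) for 4 replication genes: Mcm5 by 1.10 (adjusted p = 5.38e-06), Fen1 by 1.28 (adjusted p = 3.17e-06), Rrm2 by 1.20 (adjusted p = 9.75e-06) and Uhrf1 by 1.23 (adjusted p = 2.20e-06). The cyclin Ccna2 differed by 1.47 (adjusted p = 7.24e-07). Among mitosis markers the difference was 1.05 for Top2a, 1.25 for Ccnb1, 1.78 for Ccnb2, 1.33 for Plk1, 1.26 for Cdc20 and 1.05 for Cenpa (limma, adjusted p between 1.18e-06 and 7.12e-05). In the other direction, the rise of Il1b, Nos2 and Acod1 was smaller in Nlrp3-/- cells, by -1.46, -1.65 and -2.07 (limma, adjusted p between 7.49e-09 and 8.59e-07). The fall of Mpo, Elane, Prtn3 and Ctsg was larger there, with differences of -3.58, -2.72, -2.13 and -1.91 (limma, adjusted p between 1.18e-09 and 5.71e-06), and the stimulation effect on Hbb-bs, which fell only in Nlrp3-/- cells, differed by -1.35 (adjusted p = 1.68e-04). The rule for a library outside its group covers groups of 4 or more and was not applied to these groups of 3.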

How the results depend on the processing

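No member called with the fold limit changed sign under any alternative run. For the 4 largest member changes of each simple comparison and the 4 interaction calls, 350 values under alternatives kept their side of the threshold, 8 passed it where they had not before, 0 no longer passed and 0 reversed. The 8 were of Dut, Pcna and Cdc45 between genotypes in control cells, mostly under settings without the fold limit, where passing was fixed by their adjusted p. These results were picked for their size, which favours keeping a call. Other results of the same members did lose calls: Mcm5 (both scalings) and Uhrf1 (median-ratio) in Nlrp3-/- stimulation, and Mcm7 (median-ratio) between genotypes with LPS+ATP. With a pseudocount of 0.1 the median log2 fold change was -1.85 (wild-type stimulation), -1.02 (Nlrp3-/- stimulation), 0.87 (genotype with LPS+ATP) and 0.74 (interaction); 22 members were called lower in Nlrp3-/- cells, 1 higher in control, 16 higher with LPS+ATP and 14 in the interaction. Over all 12622 tested genes these calls rose too, from 1036 to 1774, 760 to 1274, 565 to 1266 and 91 to 272. As TPM the medians were -1.66, -0.93, 0.80 and 0.66, with 1, 12 and 8 members in the last 3 counts, beside 1450, 1192 and 231 of 16026 tested genes. TPM enlarges all values, so that by construction the pseudocount and the filter weigh less. The filter of at least 5 FPKM left 20 members by construction: 17 were called lower in wild-type cells, beside 1061 of 7585 tested genes, and the medians were -1.61, -0.996, 0.11 (genotype in control), 0.66 and 0.64. With median-ratio scaling the medians were -1.08, -0.61, 0.0368 and 0.45 (genotype with LPS+ATP), and with upper-quartile scaling -1.16, -0.73 and 0.10; Nlrp3-/- stimulation then called 4 and 6 members lower. The cause of these shifts was not tested.

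Without the fold limit 1 member was called higher by stimulation in each genotype and 35 lower in Nlrp3-/- cells, 15 were higher and 4 lower in control, 28 higher with LPS+ATP, and 25 in the interaction. With median-ratio scaling and no fold limit, an alternative chosen after seeing the data, these were 2, 32, 7, 5, 26 and 27. Over all 12622 tested genes, 4468 and 4114 were then higher by stimulation in wild-type and Nlrp3-/- cells, 4164 lower in the latter, 2587 higher and 3230 lower in control, 2871 higher with LPS+ATP and 1650 in the interaction. Either E2F-type motif alone was held by 6 members, against 11 for both together.

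Leaving out 1 library at a time, the median in Nlrp3-/- stimulation ran from -0.85 to -0.75, the latter without Nlrp3-/- LPS+ATP replicate 3. Members called ran from 26 to 28, 10 to 13, 1 to 1, 6 to 8 and 4 to 4 in the 5 comparisons. Over all tested genes, calls in the same directions ran from 1391 to 1430, 968 to 1037, 79 to 92, 553 to 570 and 81 to 93.

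The replicate block gave 27, 12, 1, 7 and 4 members called, the same counts as without it, beside 1412, 1038, 86, 563 and 89 of 12622 tested genes in the same directions. The replicate numbers shared only a number: same-numbered libraries had deviation correlations from -0.0565 to 0.0528, 0 of 12 over 0.1, and 3 of 12 libraries correlated best with their own number. A fit on the compared groups alone was not run for the interaction, which needs all 4 groups.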
